A study of Mus musculus with 6 samples.

Results

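Iron uptake through transferrin was examined at 8 mouse genes: the transferrin receptor genes Tfrc and Tfr2, the iron regulatory protein genes Aco1 and Ireb2, the endosomal reductase gene Steap3, the divalent metal transporter gene Slc11a2, and Exoc6 and Snx3, whose products move transferrin receptors through the cell. The members were all probe sets that the array's annotation pairs with 1 of these symbols alone, which gave 24 of the 45101 probe sets on the array, for 8 of its 18193 genes with a probe set of their own. Tfrc has 6 of them, 3 of which are manufacturer's control probe sets, Exoc6 and Slc11a2 have 4 each, Steap3 and Aco1 have 3 each, Tfr2 has 2, and Ireb2 and Snx3 have 1 each. A further 2 probe sets that are paired with both Exoc6 and Sh3glb1 were left out.

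The study compared Ter119-positive fetal liver cells of wild type mouse embryos with those of STAT5 knockout embryos, all at embryonic day 14.5. Ter119 marks the surface of red cell precursors as they mature, and the STAT5 factors act downstream of the erythropoietin receptor in these cells. Each of the 3 pools per genotype combined cells of 3 to 5 embryos and was hybridised to its own array. The labels give no strain and no allele, and do not say whether one or both STAT5 genes were deleted or in which cells. The design text gives pools of embryos of 1 genotype, so that a value is an average over embryos whose own spread is not seen.

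Erythroblasts take up nearly all of their iron as transferrin bound to the receptor TFRC. The complex enters acidic endosomes, where iron is released, reduced by STEAP3 and carried to the cytoplasm by the transporter that Slc11a2 encodes, while receptor and empty transferrin return to the surface with the help of the exocyst subunit EXOC6 and the sorting nexin SNX3. When iron is scarce, the iron regulatory proteins ACO1 and IREB2 bind stem-loops in mRNAs, which stabilises Tfrc mRNA and blocks translation of ferritin. Mutations of Steap3, Slc11a2 and Exoc6 each cause an iron-deficient anaemia in mice.

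A signal is the deposited linear intensity of a probe set, and a difference is the knockout mean minus the wild type mean of log2 signal, given with its standard error (SE) or 95% interval from limma's fit over 45040 probe sets. A difference was called at an adjusted p under 0.05. The control level is a signal of 162.5, the 95th percentile of 27 controls for bacterial transcripts that mouse RNA does not contain. Median signals of the arrays lay between 175.6 and 215.8. The number of arrays limits the precision: an exact two-sided permutation test of 3 against 3 cannot give a p below 0.1. All 4 probe sets of Stat5a and Stat5b read lower on every knockout array than on every wild type array. The brighter Stat5b probe set, 1422102_a_at, stayed above the control level on 2 knockout arrays and differed by -1.29. The other 3 were below that level on every knockout array, so that wild type was at least 2.29-fold higher at Stat5a 1421469_a_at, 1.33-fold at Stat5a 1450259_a_at and 3.45-fold at Stat5b 1422103_a_at, with knockout signals raised to the control level. None of the 4 was called (adjusted p between 0.237 and 0.532, limma), and the probe sets need not lie in the deleted part. Of 12 erythroid markers 8 were measured, all above the control level on at least 5 arrays.

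No member probe set was called, against a background of 0% of 45040 probe sets. With a mean-variance trend in the fit, which lets dim probe sets have a wider spread than bright ones, 0 of 24 member probe sets were called, where the background was 0.155%. Adjusted p-values of the members ran from 0.506 to 0.992 in limma and from 0.109 to 0.990 with the trend. Before adjustment, at p under 0.05, limma had 3 member probe sets lower in knockout and 1 higher, with backgrounds of 4.91% and 3.11%. The fit with the trend had 7 and 2, with backgrounds of 5.4% and 4.57%. All 3 of the lower ones in limma and 6 of the 7 with the trend belong to Tfrc and measure 1 transcript. Of the 2 higher ones with the trend, 1 is Slc11a2 1441709_at, above the control level on only 1 wild type and 2 knockout arrays. On 8 of the 24 the knockout arrays all lay below the wild type arrays, and on 1 all lay above, where 8.95% and 6.84% of all probe sets did so. Of those 8, 6 belong to Tfrc and measure the same transcript, so they are no independent results. The median difference was -0.19 over the 24 probe sets and -0.07 over all probe sets. At the brightest probe set of each gene it was -0.02 over the 8 genes and -0.08 over all 18193 genes.

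Upstream sequences are shown for the genes with a probe set whose groups did not overlap, a choice made from these same data. None of these genes was called, and at Exoc6 only the dim probe set 1424230_at was without overlap. Each is the 250 bases before a RefSeq transcription start in GRCm38.p6, read along the strand of the gene, which is the plus strand for all 4. Where RefSeq gives several starts, the one farthest upstream is shown. Capitals mark a match to the GATA type motif AGATAA.
Tfrc, chr16:32608646-32608895: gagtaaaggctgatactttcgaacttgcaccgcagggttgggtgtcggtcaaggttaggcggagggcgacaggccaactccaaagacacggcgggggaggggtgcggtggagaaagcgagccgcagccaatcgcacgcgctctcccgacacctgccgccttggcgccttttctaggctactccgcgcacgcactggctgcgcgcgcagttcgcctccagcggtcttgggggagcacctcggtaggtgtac
Tfr2, chr5:137569590-137569839: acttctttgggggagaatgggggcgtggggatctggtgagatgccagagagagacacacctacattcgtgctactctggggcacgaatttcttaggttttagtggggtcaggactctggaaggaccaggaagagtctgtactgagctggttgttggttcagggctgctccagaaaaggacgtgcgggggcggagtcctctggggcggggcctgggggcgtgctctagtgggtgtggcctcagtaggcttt
Exoc6, chr19:37550168-37550417: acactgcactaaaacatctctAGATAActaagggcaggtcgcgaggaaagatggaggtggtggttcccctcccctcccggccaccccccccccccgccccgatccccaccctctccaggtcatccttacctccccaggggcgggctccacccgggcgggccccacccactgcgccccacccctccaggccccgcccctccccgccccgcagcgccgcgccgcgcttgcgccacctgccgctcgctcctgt
Snx3, chr10:42501804-42502053: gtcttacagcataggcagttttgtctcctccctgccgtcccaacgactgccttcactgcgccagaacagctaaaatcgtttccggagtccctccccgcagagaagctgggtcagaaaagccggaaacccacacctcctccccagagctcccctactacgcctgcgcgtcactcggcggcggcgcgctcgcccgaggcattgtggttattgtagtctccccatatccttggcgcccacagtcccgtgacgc
The RefSeq table holds windows for 7 of the 8 genes, 13 windows in all, each with 250 bases before and 50 after a start, and Slc11a2 is the gene without an entry. The STAT5 type motif TTCNNNGAA, searched on both strands, was in 0 of the 13 windows and in 8.30% of the 32851 windows of all genes. The same motif with 1 more N in its middle was in 1 of the 13, a Steap3 window, and in 6.95% of all windows. AGATAA, searched on both strands, was in 2 of the 13, where the share over all windows was 11.2%. The match of Exoc6 begins 229 bases before the start, and that of Steap3 lies on the reverse strand 45 bases before its start. The 250 upstream bases shown held 64.8% G and C at Tfrc, 58.4% at Tfr2, 72.4% at Exoc6 and 61.2% at Snx3. Over all windows the median was 52.4%, with quartiles of 45.2% and 61.2%. These letters describe short windows only and leave out introns and distant elements.

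Tfrc, the receptor that binds iron-loaded transferrin, read lower in each knockout pool than in each wild type pool at all 6 of its probe sets. The brightest probe set, 1452661_at, gave signals of 33761.6, 35026.7 and 36415.5 in wild type replicates 1, 2 and 3 and of 24941.5, 31581.4 and 24755.9 in knockout replicates 1, 2 and 3. Knockout replicate 2 was the closest to wild type here. The difference was -0.38 (SE 0.21), a knockout level of 76.8% of wild type with an interval from 53.9% to 109%, and was not called (adjusted p = 0.676, limma, and 0.428 with the trend). The second probe set, 1422966_a_at, read 21108.9, 19848.6 and 23913.0 in wild type and 15214.4, 16413.6 and 14504.0 in knockout pools. Its difference of -0.49 has an interval from -0.98 to -0.0011. The third, 1422967_a_at, read 3659.3, 3299.4 and 4451.1 against 2568.5, 2714.6 and 2716.8, a difference of -0.50 with an interval from -1.02 to 0.02. In both, the lowest wild type array stood clear of the highest knockout array.

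The array also carries control probe sets for the 3′ end, the middle and the 5′ end of the Tfrc transcript. At the 3′ end signals were 9795.7, 9520.3 and 11498.4 in wild type and 7111.2, 7801.8 and 7320.2 in knockout pools. The middle read 2049.2, 2176.9 and 2379.3 against 1441.4, 1711.3 and 1498.5. The 5′ end read 3109.7, 3158.6 and 3438.2 against 2043.0, 2294.9 and 2026.5. Groups did not overlap at any of the 3 places. The differences were -0.47, -0.51 and -0.61, and the interval at the 5′ end, -1.08 to -0.14, was the farthest from 0 of the 6 Tfrc intervals. Its adjusted p was 0.564 in limma and 0.139 with the trend. Wild type replicate 3 gave the highest signal at all 6 probe sets, while the lowest came from knockout replicate 1 at 3 of them and from knockout replicate 3 at the others.

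**Figure D1:**
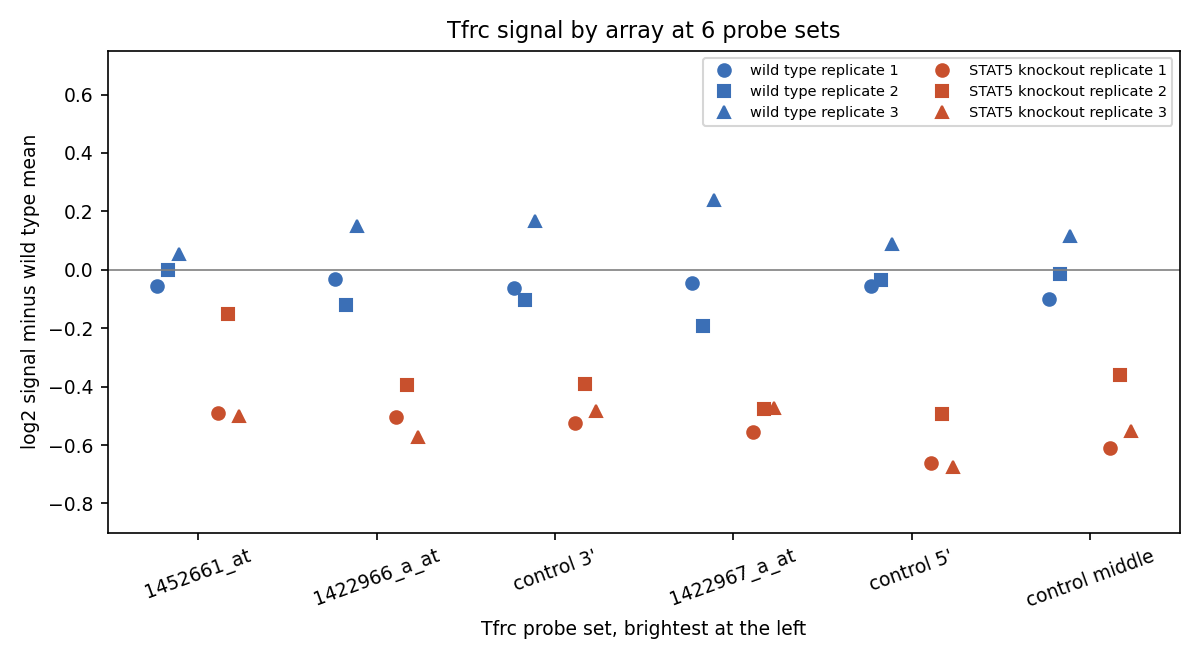
Tfrc at its 6 probe sets, brightest at the left; the vertical axis is log2 signal minus the wild type mean of that probe set, and each point is 1 array (blue, wild type; red, STAT5 knockout; the shape gives the replicate number). All knockout points lie below all wild type points at each probe set, and the mean difference runs from -0.38 at 1452661_at to -0.61 at the 5′ control.

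For the Tfrc controls, the 3′ signal divided by the 5′ signal was 3.15, 3.01 and 3.34 in wild type and 3.48, 3.40 and 3.61 in knockout pools, with no overlap. On the log2 scale wild type pools gave a ratio of 1.66 ± 0.08 (SD, n = 3) and knockout pools 1.81 ± 0.04. The difference of 0.14 had an exact two-sided permutation p of 0.1, the smallest that 3 against 3 allow. The middle to 5′ ratio differed by 0.10, with the same exact permutation p of 0.1. The actin and Gapdh controls show the ratio for other transcripts: actin ran from 0.965 to 0.995 in wild type and from 0.988 to 1.04 in knockout pools, and Gapdh from 0.752 to 0.919 and from 0.918 to 1.01. On these arrays the 5′ signal of Tfrc was lower in knockout pools by more than its 3′ signal was, and the part that RNA quality has in this was not tested.

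The direction of the Tfrc difference did not depend on the settings tried. Over all settings tried the 6 probe sets gave values between -0.67 and -0.27, each negative. Median centring gave -0.50 to -0.27 and quantile normalization -0.66 to -0.39. Without any 1 array the brightest probe set ran from -0.50, without knockout replicate 2, to -0.32, without knockout replicate 3. That probe set read between 39.8% and 58.0% of an array's highest signal. Among the 364 probe sets as bright as it (mean log2 signal above 14), 14% read lower on each knockout array than on each wild type array. A further 25% read higher on each knockout array, and the median difference was -0.07. For the 1228 with a mean between 12 and 14 these values were 17.8%, 12.7% and 0.01. For the 4522 with a mean between 10 and 12, where the dimmer Tfrc probe sets lie, they were 9.6%, 16.6% and 0.06.

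Tfr2, the second transferrin receptor, which associates with the erythropoietin receptor in erythroblasts and senses transferrin saturation in hepatocytes, read higher in knockout pools. At the dimmer probe set, 1459994_x_at, signals were 989.0, 838.3 and 1145.1 in wild type and 1848.2, 1839.3 and 1587.8 in knockout pools. Each knockout array lay above each wild type array. The difference of 0.84 (SE 0.22) had an interval from 0.30 to 1.38, and knockout pools read at 178.5% of wild type. It had the smallest p of the 24 probe sets but was not called (adjusted p = 0.506, limma, and 0.109 with the trend). The brighter probe set, 1425381_a_at, read 2520.1, 1969.9 and 1974.9 against 2973.8, 2762.0 and 2024.1, with overlapping groups. Its difference was 0.25, with an interval from -0.36 to 0.87. The probe sets thus gave the same direction but not the same size, and the _x_at name of the first marks probes that can also bind other transcripts. Over the settings tried the difference stayed between 0.72 and 0.95 at 1459994_x_at and between 0.14 and 0.54 for the gene's brightest probe set or its mean.

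Steap3 encodes the ferrireductase of the erythroid endosome. Its brightest probe set, 1423468_at, read 1566.3, 1312.8 and 1423.8 in wild type and 1659.0, 1211.8 and 1420.8 in knockout pools, so that the knockout arrays span the wild type range. The difference was -0.01, with an interval from -0.55 to 0.53. At 1430355_a_at it was -0.32 (interval -0.93 to 0.30) and at 1453498_x_at -0.05 (interval -0.79 to 0.68), both with overlapping groups. The interval at the brightest probe set covers a knockout level from 68.1% to 144.3% of wild type.

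Slc11a2 encodes the transporter that carries ferrous iron out of the endosome. The brightest of its 4 probe sets, 1452078_a_at, read 2147.0, 1628.0 and 2895.5 in wild type and 2087.0, 2311.5 and 2312.5 in knockout pools. The knockout values lay inside the wild type range, and the difference was 0.05 (interval -0.62 to 0.71). The next, 1417584_at and 1426441_at, differed by 0.10 and -0.11, with overlapping groups. The dimmest, 1441709_at, read 40.3, 53.5 and 202.4 in wild type and 202.4, 159.6 and 238.8 in knockout pools. Only 1 wild type and 2 knockout arrays were above the control level there, the groups overlapped, and no fold is given. The gene therefore gave both directions, each within the spread of the arrays.

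Exoc6, the exocyst subunit whose loss causes the hbd anaemia of mice by slowing the return of the receptor, had a lower knockout mean at the 3 of its 4 probe sets that were above the control level. At the brightest, 1424231_s_at, signals were 1993.1, 1604.7 and 2111.5 in wild type and 1670.0, 1219.7 and 1439.8 in knockout pools. Knockout replicate 1 overlapped with wild type replicate 2. The difference of -0.40 (SE 0.23) had an interval from -0.98 to 0.17. At 1424230_at signals were 460.8, 449.3 and 594.1 against 414.1, 320.9 and 396.6, which do not overlap, with a difference of -0.41 (interval -0.97 to 0.16). The probe set 1460576_at differed by -0.17 with overlapping groups, and 1446375_at lay below the control level on every array and gets no fold. Adjusted p-values of the 4 lay between 0.683 and 0.893 in limma.

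Snx3, a sorting nexin that returns the receptor from endosomes to the surface, has 1 probe set, 1422480_at. It read 16853.4, 16524.3 and 17957.6 in wild type and 14062.5, 16265.1 and 14048.9 in knockout pools. The groups did not overlap, although knockout replicate 2 came close to wild type replicate 2. The difference was -0.21 (SE 0.19) with an interval from -0.69 to 0.26 (adjusted p = 0.779, limma).

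Ireb2 encodes iron regulatory protein 2, which is controlled mainly by its breakdown in iron-rich cells. Its probe set 1433527_at read 897.6, 926.7 and 929.0 in wild type and 1052.2, 900.9 and 779.9 in knockout pools. Wild type values lay close together, with an SD of 0.03 on the log2 scale (n = 3), and knockout values were spread on both sides of them, with an SD of 0.22. The difference was -0.02, and its interval from -0.54 to 0.49 covers a knockout level between 68.9% and 141% of wild type.

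Aco1 encodes iron regulatory protein 1, which is a cytoplasmic aconitase when it holds an iron-sulphur cluster. Its brightest probe set, 1456728_x_at, read 1889.7, 2711.9 and 1852.2 in wild type and 2329.2, 1951.7 and 2309.9 in knockout pools. Wild type replicate 2 was the highest array and the other wild type arrays the lowest. The difference was 0.05 (interval -0.55 to 0.65). At 1423644_at, where signals were 496.6, 966.1 and 392.3 against 505.3, 543.5 and 634.2, it was -0.04 (interval -0.96 to 0.89). The same wild type pool stood highest there too, and without it the difference was 0.34. At 1447080_at 2 wild type arrays and 1 knockout array were above the control level, and the groups overlapped, so no fold is given. Transcript levels do not show the activity of either regulatory protein, which depends on protein stability and on the iron-sulphur cluster.

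**Figure D2:**
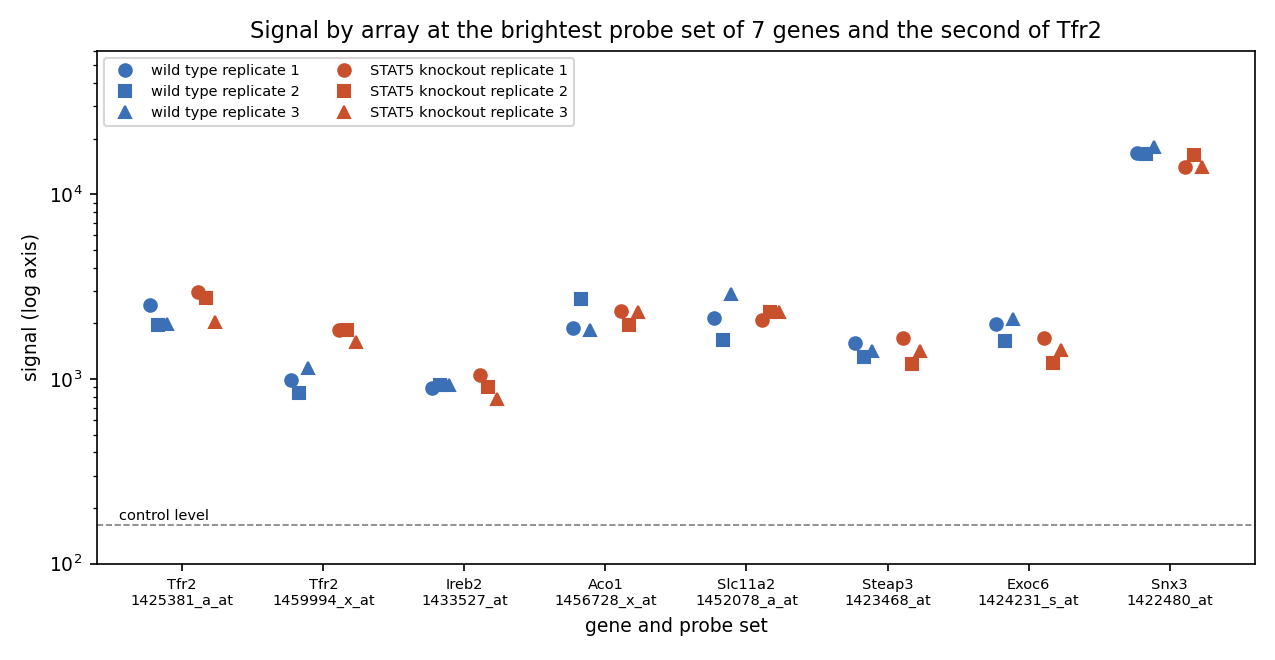
Signal by array (log axis) at the brightest probe set of the 7 genes other than Tfrc and at the dimmer Tfr2 probe set; each point is 1 array, blue for wild type and red for STAT5 knockout, and the dashed line is the control level of 162.5. Only Tfr2 1459994_x_at and Snx3 have groups that do not overlap; heights of different probe sets are not comparable.

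**Figure D3:**
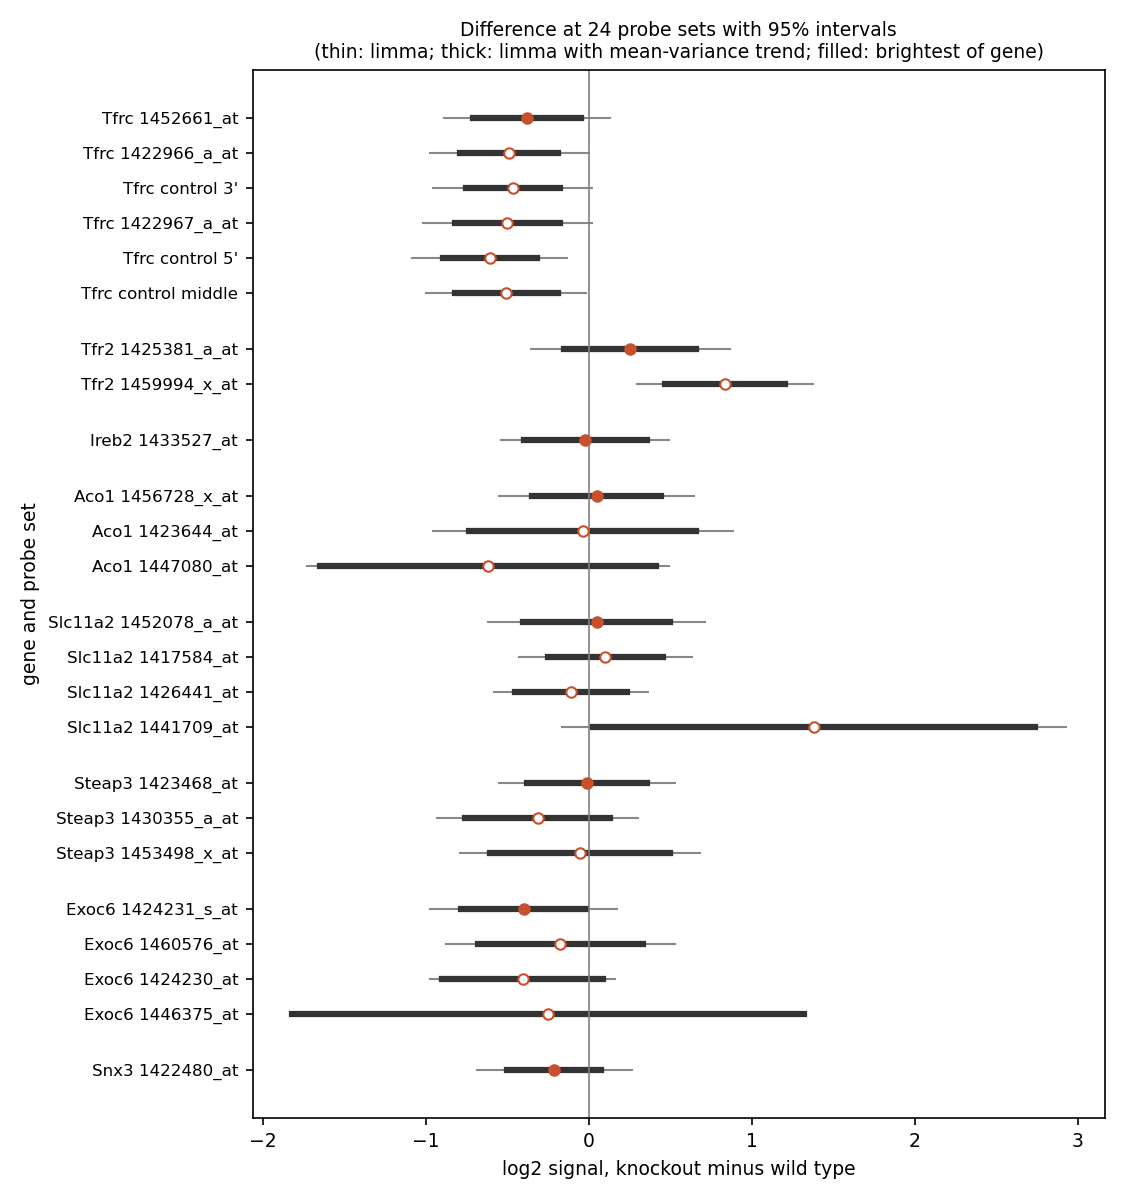
Log2 signal in knockout minus wild type at the 24 member probe sets; points are differences (filled for the brightest probe set of a gene), thin lines the 95% interval of limma and thick lines that of limma with a mean-variance trend. The 6 Tfrc points lie between -0.61 and -0.38, the Tfr2 points at 0.25 and 0.84, and the Steap3 points between -0.32 and -0.01.

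The other genes of the pathway were taken as 4 lists, at the brightest probe set of each gene. Of 59 listed genes 53 were measured with a probe set of their own, and the transferrin gene Trf was not among them. None of the 53 was called in limma or with the trend, where the backgrounds over 18193 genes were 0% and 0.214%. The median difference over the 53 was -0.10, where that of all genes was -0.08, and 33 of 53 differences were negative, where the share over all genes was 58.1%. Groups did not overlap for 5 lower and 3 higher genes, against 9.85% and 7.02% of all genes.

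In the list of the transferrin cycle and endosome, 25 of 27 genes were measured, with a median of -0.08, 16 of them lower and 9 higher. Among genes with a genotype mean above the control level, those with the smallest p were Rab12 (-0.95), a small GTPase that sends the receptor to lysosomes, Rab4a (0.64), a GTPase of fast recycling, and the metalloreductase gene Steap1 (-0.63). Rab4a read 512.2, 609.1 and 329.5 in wild type and 990.9, 628.4 and 630.7 in knockout pools, without overlap. Rab12 read 551.5, 549.8 and 391.0 against 278.0, 137.5 and 433.4, where knockout replicate 3 lay inside the wild type range. None of the 3 was called (adjusted p between 0.655 and 0.671, limma).

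Among the 8 other exocyst genes, 4 were lower and 4 higher, with a median of 0.02. The smallest p-values were those of Exoc3 (-0.24), Exoc7 (0.34) and Exoc4 (0.23). Exoc3 read 972.5, 912.5 and 1109.1 in wild type and 794.0, 843.3 and 888.7 in knockout pools, without overlap. The mean of all Exoc4 probe sets gave -0.20. It takes in 1453977_at (-1.35), which was below the control level on every knockout array, while the other probe sets ran from -0.06 to 0.23. All 3 had adjusted p-values between 0.758 and 0.775 in limma, against 0.690 at the brightest Exoc6 probe set.

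The list for the control of the iron regulatory proteins and for iron-sulphur clusters had a median of -0.16 over 14 of 16 genes, with 8 lower and 6 higher. Isca2, a mitochondrial iron-sulphur assembly factor, differed by 0.37, reading 2827.0, 2490.1 and 2927.7 in wild type and 3208.9, 3807.2 and 3661.3 in knockout pools, without overlap. Hscb, a co-chaperone of the assembly, differed by -0.51 with overlapping groups. Skp1, a subunit of the ubiquitin ligase that removes IREB2, differed by -0.37, reading 7230.1, 6333.8 and 6476.5 against 5161.9, 4487.9 and 5973.8, without overlap. Fbxl5, the iron-sensing subunit of the same ligase, differed by -0.37 with overlapping groups, and is named here although the rule for named genes did not take it. The 3 genes that the rule took had adjusted p-values between 0.675 and 0.689 in limma.

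The list of other mRNAs with an iron responsive element had a median of -0.18 over 6 of 8 genes, 5 of them lower. Fth1, the ferritin heavy chain, differed by -0.24, reading 60184.4, 64606.3 and 54886.2 in wild type and 43083.9, 57420.7 and 52826.9 in knockout pools. The groups overlap, and these signals were between 76.4% and 88.6% of the highest signal of an array. The kinase gene Cdc42bpa differed by -0.28, while the mean of all its probe sets gave 0.25. That mean takes in 1442260_at (2.43) and 1438449_at (-1.29), both below the control level on every array. Slc40a1, the iron exporter ferroportin, differed by 0.21, with overlapping groups. Adjusted p-values of the 3 lay between 0.753 and 0.848 in limma.

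**Figure D4:**
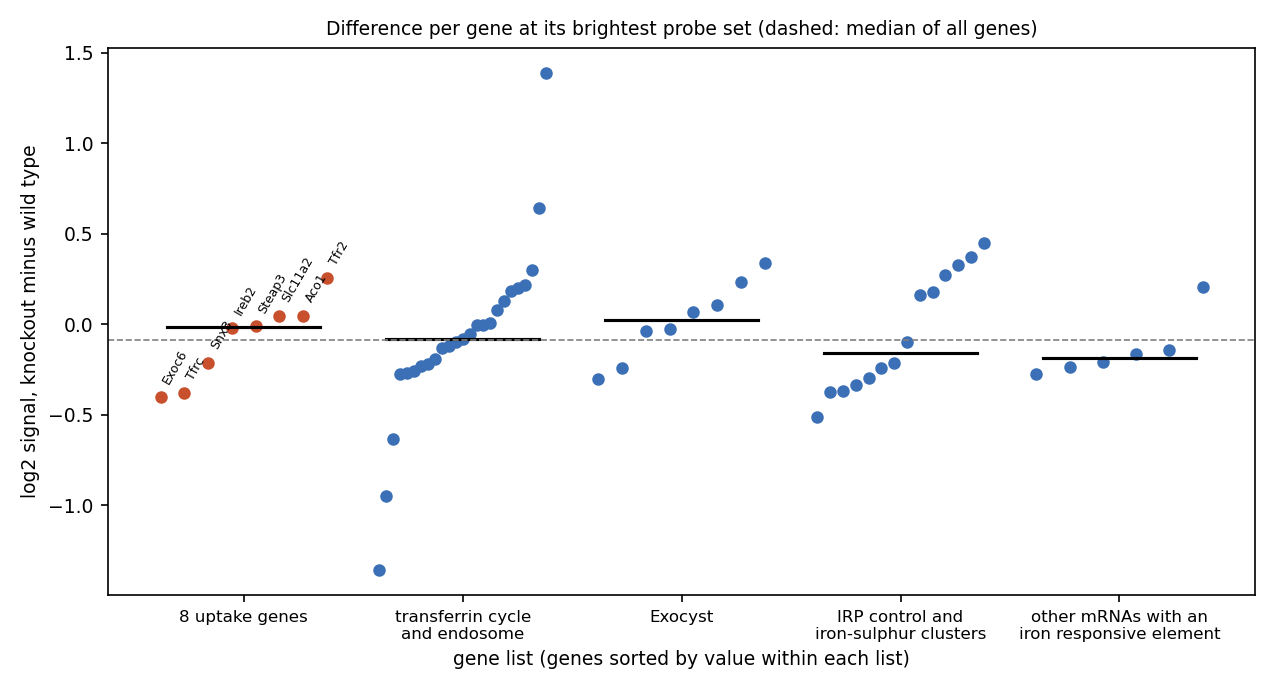
Log2 signal in knockout minus wild type per gene at its brightest probe set, for the 8 uptake genes (red, named) and the 4 pathway lists (blue), sorted by value within a list; bars are list medians and the dashed line is the median of all genes, -0.08. List medians lie between -0.18 and 0.02, and Exoc6 and Tfrc are the lowest of the 8 uptake genes.

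The genes whose pattern over the 6 arrays was most like that of the brightest Tfrc probe set were taken from 9837 genes above the control level on every array. They were Cyp2c38 (Pearson r = 0.99), S100a5 (0.99), Rab38 (0.99), Chmp5 (0.98) and Rbm38 (0.98). Their means were lower in knockout pools, by -0.37 to -0.24. This direction follows from the choice by likeness to Tfrc and is no separate result. Snx3 ranked 7 with r = 0.98. Of the other uptake genes Exoc6 had r = 0.43, Ireb2 0.09, Slc11a2 0.04, Aco1 -0.33, Tfr2 -0.37 and Steap3 -0.38. These values describe 6 arrays that share the 2 genotypes and a scaling per array.

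Markers of other cell types were set beside these values, and no difference of a marker was called. In bulk RNA, fewer cells of a type and less RNA per cell cannot be told apart. All 13 hepatocyte markers were lower in knockout pools, and their summed signal ran from 169698.5 to 289759.9 in wild type and from 145478.4 to 160466.0 in knockout pools. The median difference of the 13 was -0.73, from -1.11 at Ahsg to -0.30 at Hnf4a, and 9 of them were without overlap, against 9.85% of all genes. The brightest were Alb (-0.43), Afp (-0.32) and Ttr (-0.48), and Alb read between 63.6% and 91.0% of an array's highest signal. None of the 13 lay below the control level on any array. Hepatocytes also express Tfrc, Tfr2, Slc11a2 and Aco1, and selection for Ter119, which they do not carry, should remove them. Wild type replicate 2 had the highest hepatocyte sum and the highest signal at the brighter Aco1 probe sets. The same array had the lowest signal of all arrays at both Tfr2 probe sets and at Slc11a2 1452078_a_at and 1417584_at. Wild type replicate 3 had the lowest hepatocyte sum of its genotype and the highest signal at all 6 Tfrc probe sets. These are single arrays, hepatocyte sums differ with genotype, and the part that hepatocyte RNA has in the values of the uptake genes was not tested.

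Of the 8 markers of immature progenitors 4 were higher and 4 lower in knockout pools, with summed signals of 5353.8 to 7031.2 in wild type and 7830.0 to 9662.4 in knockout pools. Cd44 (0.80), Myb (1.65) and Mpo (-0.23) were the brightest. The 4 higher ones were without overlap, where 7.02% of all genes were higher without overlap. The 8 erythroid markers summed to between 185281.3 and 199368.6 in wild type and to between 154647.0 and 197565.6 in knockout pools, with 7 of 8 lower. Alas2 (-0.16), the heme synthesis enzyme of red cells, Slc4a1 (-0.22), the anion exchanger, and the transcription factor gene Klf1 (-0.01) were the brightest. Alas2 read between 80.7% and 93.3% of an array's highest signal, and the Slc4a1 probe set between 78.4% and 83.5%. The dimmer Slc4a1 probe set 1431743_a_at differed by -0.75 without overlap, and so did Epb42 (-0.39), a membrane skeleton gene, and Rhag (-0.31), an ammonium channel gene. These 3 were chosen after their values were seen. At the brightest probe set of each gene, 2 of the 8 markers were lower without overlap, against 9.85% of all genes. Slc4a1 1434502_x_at (-0.28) and Gata1 (-0.14) had overlapping groups, and so had Epor, which was higher (0.28). Knockout replicate 2 had the highest erythroid sum of its genotype, and it also had the highest knockout signal at 5 of the 6 Tfrc probe sets and at Snx3. The wild type arrays went the other way: replicate 3 had the lowest erythroid sum of its genotype and the highest signal at all 6 Tfrc probe sets and at Snx3.

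Of 10 endothelial markers 9 were lower in knockout pools (sums of 3182.6 to 5413.9 against 3127.5 to 3461.8), the brightest being Cdh5 (-0.14), Egfl7 (-0.20) and Kdr (0.13). Lyve1, a marker of sinusoidal endothelium chosen after its values were seen, had the smallest p of the list: it was below the control level on all knockout arrays, and wild type was at least 4.04-fold higher (adjusted p = 0.442, limma, and 0.103 with the trend). Macrophage markers were lower for 6 of 13, with sums of 24395.6 to 41168.4 against 30410.6 to 42692.1 and Cd163 below the control level on all arrays. The brightest were Csf1r (-0.03), Cd5l (0.02) and Adgre1 (0.36). Megakaryocyte markers were lower for 4 of 6, with sums of 3682.5 to 13652.4 against 3818.3 to 5031.5, led by Pf4 (-0.87), Itga2b (-0.02) and Gp9 (0.58). No marker of these 6 lists was called in limma (adjusted p between 0.442 and 0.996) or with the trend. The part that the makeup of the pools has in the values of Tfrc, Tfr2 and the other uptake genes was not tested.

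**Figure D5:**
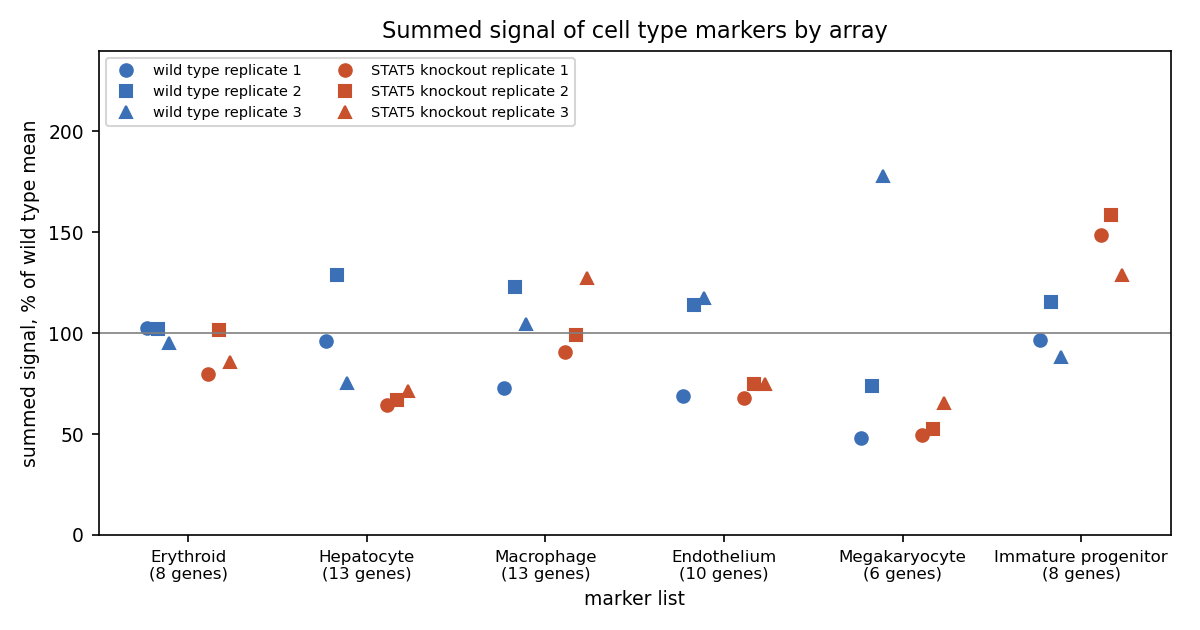
Summed signal of 6 marker lists by array, as a percentage of the wild type mean of that list; each point is 1 array (blue, wild type; red, STAT5 knockout). Hepatocyte sums of all knockout arrays lie below those of all wild type arrays, immature progenitor sums above them, and the other 4 lists overlap.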

How the data were processed

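Biotin-labelled RNA of 6 pools of Ter119-positive cells was measured on Affymetrix mouse arrays, per the labels' protocols and the design text. The deposited values are linear intensities, 1 per probe set and array. RMA and Partek are named, without versions, per the submitters' processing notes. The deposited intensities have a mean of 500.0 on each array once the lowest and the highest 2% are dropped. Their medians ran from 175.6 to 215.8, so the deposited values are not quantile normalized over the arrays. The scaling method is not given in the sources used. Per the design text, the submitters chose genes by ANOVA.

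Groups and replicate numbers come from the sample titles. Log2 of the intensity was fitted with limma 3.58.1 in R 4.3.3 (lmFit and eBayes) over 45040 probe sets, with no filter and no pseudocount, and p-values were adjusted by Benjamini-Hochberg. Of 64 control probe sets only the 3 for Tfrc were kept. The platform annotation gave 34948 fitted probe sets 1 symbol, 932 several and 9160 none, and 34744 matched RefSeq's GRCm38.p6 table with 0 symbols changed. Only promoter windows carry coordinates. A gene was represented by its brightest probe set.

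The members and lists were chosen with earlier results of these data known. Named were all member, Stat5a and Stat5b probe sets, the 3 genes of each pathway list with the smallest p and a group above the control level (or those called), the 3 brightest markers per list and the 5 genes most like Tfrc. The bins by brightness were chosen after the data were seen. Alternatives were a mean-variance trend with and without robust estimation, the methods' t-test, quantile normalization, median centring, a filter on the dimmer 50%, weights per array, a block for the replicate number, each array left out in turn, a pseudocount of 32, leaving out shared probe sets, and fits by gene. On simulated data with these means, probe sets drawn at random from all fitted ones were changed. Of 100 changed by 2 on the log2 scale limma called 0%, and 33% with the trend. Of 100 changed by 1 it called 0% and 6%, with 0 and 6 false calls.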

Additional observations from a re-analysis of the deposited data

How the results depend on the processing

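Across the settings no member probe set and no gene of the pathway lists was called after adjustment. The number of all probe sets called was 0 in the fit without a trend (limma, 3609 at an unadjusted p under 0.05), 70 with a mean-variance trend, 69 with robust estimation added, 20 without the dimmer 50% of probe sets, 5 with a pseudocount of 32, 8 with 1 probe set per gene and 7 with the mean of a gene's probe sets. Leaving out any 1 array gave 0. By the methods' t-test at an unadjusted p under 0.05 and over 1.5-fold, 2338 of all 45040 probe sets passed. Among them were 2 of the 24 member probe sets, Tfr2 1459994_x_at and the 5′ control of Tfrc, and all 4 of Stat5a and Stat5b.

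With the replicate number as a block the count was 0, and 61 with the trend added. Deviations from the group means correlated by 0.10, 0.12 and 0.10 between arrays of the same number over the brighter 22520 probe sets. Each array correlated best with its own number, a hint from the data and not from the design, so the numbers were not taken as pairs.

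Directions of Tfrc, Tfr2 and Snx3 held under all settings. Small differences turned sign. Median centring gave 0.092 for Ireb2, 0.076 for Aco1 1423644_at, 0.0013 for Slc11a2 1426441_at, and 0.10 and 0.058 for Steap3 1423468_at and 1453498_x_at. Quantile normalization gave -0.013 for Aco1 1456728_x_at and -0.0046 for Slc11a2 1452078_a_at, array weights 0.012 for Aco1 1423644_at, and the mean of all probe sets -0.20 for Aco1, -0.20 for Exoc4 and 0.25 for Cdc42bpa. Without 1 array the values ran from -0.13 to 0.085 for Ireb2, -0.048 to 0.23 and -0.31 to 0.34 for Aco1 1456728_x_at and 1423644_at, -0.16 to 0.26 and -0.031 to 0.19 for Slc11a2 1452078_a_at and 1417584_at, -0.12 to 0.10 and -0.30 to 0.090 for Steap3 1423468_at and 1453498_x_at, and -0.61 to 0.082 for Exoc6 1446375_at, whose signals were below the control level on every array, so that its sign is no measurement. The cause was not tested. The means for Aco1, Exoc4 and Cdc42bpa take in probe sets below the control level on some or all arrays. The 3′ to 5′ difference of Tfrc ran from 0.11 to 0.18 without 1 array. Probe sets left out by a filter have no value under it. The median difference of all probe sets was -0.07, 0.00 after quantile normalization and 0.04 after median centring. The simulation held changes of 1 and 2 on the log2 scale, larger than nearly all member differences, and most of these were not called. Its changed probe sets were drawn at random from 45040, of which 26920 have a mean log2 signal of at most 8. Of the 24 member probe sets 21 were above the control level on every array, so these rates do not give the power at the members. A missing call does not show equal levels.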
